A study of Rattus norvegicus with 8 samples.

Results

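The ribonuclease A (RNase A) superfamily and the proteins that work beside it were examined in peritoneal macrophages of rats injected with 2 kinds of carbon nanotube. The 6 genes were chosen by symbol, with earlier results of the same comparison known: Rnase2, Rnase1l1, Rnase4 and Rnase6, which encode secreted RNases of the superfamily, Rnaset2, which encodes an acid RNase of the unrelated T2 family, and Rnh1, which encodes the RNase inhibitor. Of these, 5 had a row among the 23487 genes of the deposited table, and Rnase6 was not analysed here. The rats were female Wistar, 8 weeks old, and were sacrificed 15 days after an intraperitoneal injection of the needle-like, mesotheliomagenic CNT-7 (MWCNT-XNRI-7) or of the tangled CNT-T, which is not mesotheliomagenic, with 4 rats per particle. Both particles were suspended in buffered saline with bovine serum albumin, and macrophages were sorted by flow cytometry from the peritoneal lavage. No untreated rat was analysed here, so that each value below compares one particle with the other.

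RNases of the A superfamily are small, basic, disulfide-bonded proteins that leave the cell by the secretory pathway and cleave RNA. Several of them take part in host defence, and the eosinophil-associated RNases, to which Rnase2 belongs, multiplied and diverged in rodents. Angiogenin is a member that also acts as a growth factor. The protein of Rnaset2 degrades RNA in lysosomes and supplies RNA fragments to endosomal Toll-like receptors. The inhibitor encoded by Rnh1 is a leucine-rich repeat protein of the cytosol that binds RNases of the A type very tightly and protects cellular RNA from them.

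Total counts lay between 27195157 and 33732981 per rat, so that 3 counts corresponded to between 0.0887 and 0.109 CPM (each count scaled to library size, adjusted by the TMM method). Intervals and floors of this kind cover counting error only. Markers of macrophages were abundant, and none of the 8 was at 0 in any rat. They summed to 15350.3 to 22356.9 CPM in CNT-7 rats and 24178.7 to 34378.5 CPM in CNT-T rats. Most of this sum was Lyz2, which was not called, and the other markers moved unequally. Cd163 (log2 fold change -1.69), Adgre1 (-1.13), Fcgr1a (-0.54), Cd68 (-0.34) and Csf1r (-0.33) were called lower in CNT-7, Cd14 (0.46) was called higher, and Mertk (0.08) was not called. The part of these markers in the results below was not tested. Of the eosinophil markers, given in full beside Rnase2 below, Epx and Prg3 had no count in any rat. Those of mast cells, mesothelial cells and B cells summed to at most 2.78 CPM. The T cell markers gave sums of 8.23 to 12 CPM (CNT-7) against 4.25 to 4.76 CPM (CNT-T). Most of this came from Cd8a, called higher in CNT-7 (log2 fold change 2.74), and Lck (-0.25), which was not called. Cd3e, Cd3d and Cd3g had too few counts to be tested. Cd3e had 0.29 to 2.11 CPM in the CNT-7 rats and 0.0358 to 0.231 CPM in the CNT-T rats. The means of Cd3d (0.313 against 0.0638 CPM) and Cd3g (0.466 against 0.121 CPM) were also higher with CNT-7, but the groups overlapped. Each of these Cd3 genes was highest in CNT-7 rat 5. The part of the T cell markers in the results was not tested either. Neutrophil markers gave 3.08 to 11.1 CPM over all 8 rats. In the fit over all 12124 genes with enough counts, the median log2 ratio of the groups, taken as CNT-7 over CNT-T here and below, was 0.0083, with 10% of the genes below -0.51 and 10% above 0.53.

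The secreted RNases Rnase2 and Rnase1l1 were present after CNT-7 and at or near 0 after CNT-T. Rnase2 (ENSRNOG00000032133) encodes an eosinophil-associated RNase. Its level was 55.8, 33.3, 84.4 and 49.4 CPM in CNT-7 rats 3, 5, 10 and 11. CNT-T rats 1, 2 and 12 had 1 count each and CNT-T rat 13 had 0 counts. The groups therefore did not overlap, and the lowest CNT-7 rat still had 994 counts. The mean after CNT-7 was 55.7 ± 21.3 CPM (SD, n = 4), at least 519-fold higher than a floor of 3 counts per library in the CNT-T rat with the highest floor (0.107 CPM). For the lowest CNT-7 rat alone this bound was 310.0-fold. In these sorted but bulk samples, fewer cells expressing a gene and less RNA per cell cannot be told apart. Since Rnase2 and Rnase1l1 passed the filter on low counts through the CNT-7 rats alone, a difference was built into their being tested.

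Rnase3, which encodes an eosinophil-associated RNase like Rnase2, is a near relative that was likewise detected in CNT-7 rats alone, at far fewer counts. It had 9, 0, 5 and 2 counts in CNT-7 rats 3, 5, 10 and 11 and 0 counts in every CNT-T rat, so that it did not pass the filter on low counts. Without this filter 3 of the other superfamily genes were called in place of 2, in a fit where 19.7% of all genes were called. The additional one was Rnase3, whose counts were above 3 only in CNT-7 rats 3 and 10, and nothing is read from this call. The 250 bases before the start of both genes are nevertheless close to identical. In the RefSeq sequences of GRCr8, 225 of 243 aligned bases (92.6%) were the same. They are shown because the counts of the genes that follow them differ so widely, although reads of such near-identical genes may be divided with error. Capitals mark bases that differ from the other gene or have no partner within the alignment. The Rnase2 stretch is at chr15:26923935-26924184 and the Rnase3 stretch at chr15:26986270-26986519, both on the minus strand.
Rnase2: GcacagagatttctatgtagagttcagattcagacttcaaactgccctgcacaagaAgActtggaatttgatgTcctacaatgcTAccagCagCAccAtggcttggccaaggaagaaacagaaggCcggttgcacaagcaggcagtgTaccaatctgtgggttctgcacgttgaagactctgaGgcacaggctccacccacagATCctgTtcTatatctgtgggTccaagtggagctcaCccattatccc
Rnase3: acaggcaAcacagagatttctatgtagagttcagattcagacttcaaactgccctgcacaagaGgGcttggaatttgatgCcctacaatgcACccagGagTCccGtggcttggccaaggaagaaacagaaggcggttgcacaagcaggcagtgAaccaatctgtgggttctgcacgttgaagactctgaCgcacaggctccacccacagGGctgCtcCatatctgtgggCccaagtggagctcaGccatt

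Both stretches were searched, on both strands, for the letters of 8 motifs, namely the PU.1 letters GAGGAAG, the AP-1 letters TGANTCA, the C/EBP letters TTGCNNAA, TTC and GAA spaced by 3 bases for STAT and by 4 for STAT6, the TATA box TATAAA, the CCAAT box and the GC box GGGCGG. The strings found did not overlap one another in the windows of Rnase2 and Rnase3. The C/EBP letters began 121 bases before the start of Rnase2 and 115 bases before that of Rnase3, and the CCAAT letters 101 and 95 bases before. Among all 33469 RefSeq windows of the same length, 9.22% held the C/EBP letters and 34% CCAAT. Such matches describe the sequence and are no binding sites, and they were the same in a gene with 994 to 2336 counts per CNT-7 rat and in one with at most 9.

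Rnase1l1 (ENSRNOG00000025615) is one of the rodent duplicates of the pancreatic-type RNase gene Rnase1. Its level was 135.8, 84.2, 152.6 and 154.5 CPM in CNT-7 rats 3, 5, 10 and 11, with a mean of 131.8 ± 32.8 CPM (SD, n = 4). CNT-T rats 2 and 12 had 24 and 17 counts, which are 0.709 and 0.56 CPM, while CNT-T rats 1 and 13 had 0 counts. The fitted log2 fold change was 8.62 (standard error 0.55), and it stayed between 8.21 and 9.40 over the 8 fits that leave out 1 rat. Unlike Rnase2, Rnase1l1 was thus detected above the floor in a part of the CNT-T rats. The ratio of Rnase1l1 to Rnase2 counts varied among the CNT-7 rats from 1.81 in rat 10 to 3.13 in rat 11, so that both genes did not keep a fixed proportion. Rnase2 was highest in rat 10 and Rnase1l1 in rat 11, and rat 5 was the lowest for both. With 4 rats in the group, the co-variation of both genes was not tested.

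The stretch before Rnase1l1 (chr15:26812454-26812703, minus strand, GRCr8) is of another kind. It had none of the 8 motifs. No CpG dinucleotide was present either, and 7.83% of all windows had no CpG. It holds 4 copies of a 16-base repeat, in capitals below. Only 1 other of the 33469 windows held this repeat, that of the duplicate Rnase1l2, with 3 copies. The windows of both duplicates shared 218 of 247 aligned bases (88.3%), and Rnase1l2 itself was not analysed here.
Rnase1l1: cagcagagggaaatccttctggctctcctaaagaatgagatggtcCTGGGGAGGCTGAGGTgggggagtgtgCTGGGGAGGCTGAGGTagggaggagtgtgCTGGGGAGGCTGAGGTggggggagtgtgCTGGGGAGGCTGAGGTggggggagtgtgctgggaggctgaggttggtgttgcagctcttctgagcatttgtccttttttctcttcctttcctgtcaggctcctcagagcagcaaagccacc

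**Figure D1:**
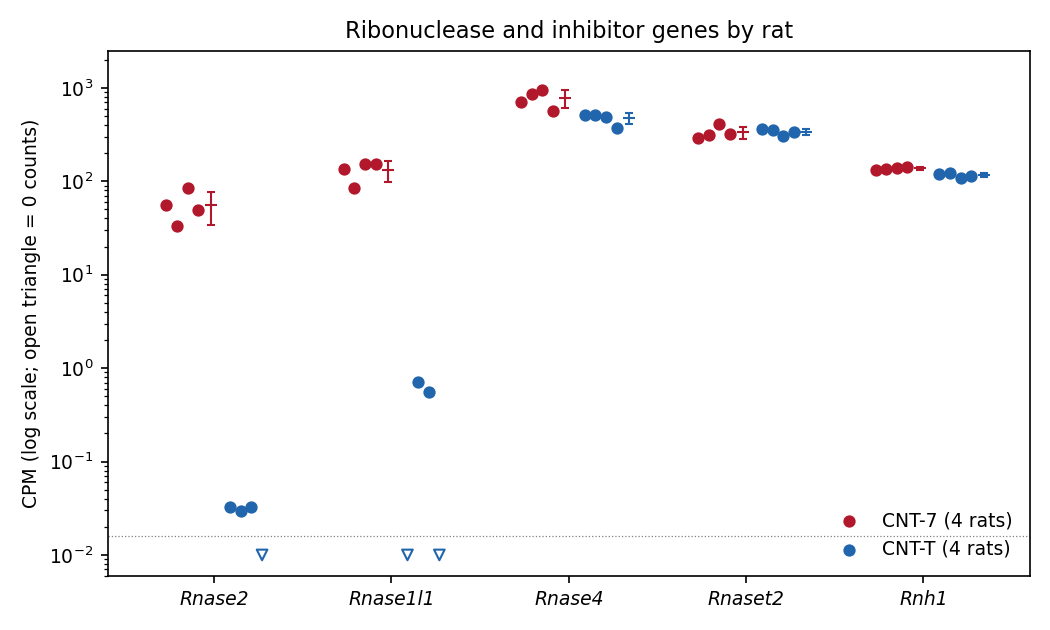
Level of each gene in each rat, in CPM on a log axis. Filled points are rats, open triangles at the bottom are rats with 0 counts, and dashes with bars give the mean ± SD (n = 4) where every rat had counts. Rnase2 and Rnase1l1 were at 33.3 CPM or more in all CNT-7 rats and under 1 CPM in all CNT-T rats, whereas Rnaset2 overlapped between the groups.

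Rnase4 (ENSRNOG00000025625), which encodes the most conserved RNase of the superfamily, was expressed in both groups. It had 703.8, 855.8, 959.2 and 572.0 CPM in CNT-7 rats 3, 5, 10 and 11. In CNT-T rats 1, 2, 12 and 13 it had 516.5, 517.6, 493.1 and 374.8 CPM. The groups did not overlap, but CNT-7 rat 11 lay close to the highest CNT-T rats. Rnase4 averaged 772.7 ± 170.0 CPM (CNT-7) against 475.5 ± 68.1 CPM (CNT-T; SD, n = 4), a log2 fold change of 0.70 (standard error 0.17). The order of the CNT-7 rats differed from that of Rnase1l1, since rat 11 was the highest for Rnase1l1 and the lowest for Rnase4.

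The stretch before Rnase4 (chr15:26786037-26786286, plus strand, GRCr8) holds 13 CpG dinucleotides, more than 70.6% of all windows. The GC box letters, in capitals, began 126 and 100 bases before the start and were found in 30.5% of all windows. The CCAAT letters began 95 bases before the start, overlapping the second GC box by 1 base. The start of the angiogenin gene Ang lies 54 bases away, so that 196 bases belong to the windows of both genes. No value under the symbol Ang was analysed here, and how the quantification treated reads from exons shared by Ang and Rnase4 was not tested. A second start of Ang has a window that equals that of Ang2 in 247 of 249 aligned bases.
Rnase4: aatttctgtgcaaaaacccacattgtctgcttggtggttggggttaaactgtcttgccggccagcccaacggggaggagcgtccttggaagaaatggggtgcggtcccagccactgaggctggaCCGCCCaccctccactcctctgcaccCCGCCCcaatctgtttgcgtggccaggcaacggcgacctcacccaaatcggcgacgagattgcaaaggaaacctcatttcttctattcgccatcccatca

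Rnaset2 (ENSRNOG00000013190), the lysosomal RNase, had nearly the same level after both particles. It ranged from 292.1 to 406.9 CPM in the CNT-7 rats and from 305.4 to 364.0 CPM in the CNT-T rats, with overlap. The means were 334.3 ± 50.2 and 339.5 ± 25.6 CPM (SD, n = 4), and the log2 fold change of -0.02 was smaller than its standard error of 0.11. Its sign was not stable, as leaving out one rat at a time gave values between -0.13 and 0.04.

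Rnh1 (ENSRNOG00000016416), the cytosolic inhibitor, was slightly higher after CNT-7. Its level was 132.8, 136.0, 139.5 and 141.7 CPM in CNT-7 rats 3, 5, 10 and 11, and 118.4, 124.1, 109.6 and 113.5 CPM in CNT-T rats 1, 2, 12 and 13. The groups did not overlap, although the difference was small, with a log2 fold change of 0.24 (standard error 0.064). Rnh1 was the least variable of the 5 genes between rats. Its coefficient of variation was 2.86% in the CNT-7 rats and 5.38% in the CNT-T rats, against 38.2% for Rnase2, 24.9% for Rnase1l1 and 22% for Rnase4 in the CNT-7 rats.

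By the threshold of the study (adjusted p under 0.10 in edgeR's quasi-likelihood test over all 12124 genes), 4 of the 5 genes were called, all of them higher in CNT-7, and the same 4 had no overlap between the groups. Over all genes, 27.9% were called, 13.9% as higher in CNT-7. Groups without overlap were found for 24.9% of all genes, with the CNT-7 rats above in 12.3% and the CNT-T rats above in 12.6%. The count of 4 was the same when the share of all genes called was 20.7% (a threshold of 0.05), 30.0% (DESeq2), 28.0% (upper-quartile normalization) or 19.7% (no low-count filter). It was also 4 without CNT-7 rats 3, 5, 10 and 11 in turn, where 22.9%, 21.2%, 23.6% and 28.7% of all genes were called, and without CNT-T rats 1, 2, 12 and 13, where 26.9%, 22.4%, 21.0% and 25.1% were. Because the genes were chosen with this comparison known, nothing is read from these counts.

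Eosinophils are a known source of Rnase2-type transcripts, and the values of their markers are therefore given beside it. Of the 5 eosinophil markers, between 2 and 4 were at 0 counts in each rat of either group. Their sum was 9.33 CPM in CNT-7 rat 3, 0.67 CPM in rat 5, 0.217 CPM in rat 10 and 0.181 CPM in rat 11, and it ranged from 0.107 to 0.359 CPM in the CNT-T rats. The sum in CNT-7 rat 3 came mainly from Ccr3 (8.74 CPM), the eotaxin receptor, and Il5ra (0.558 CPM), the interleukin-5 receptor. Prg2 had at most 2 counts in a rat. The part of these markers in the Rnase2 result was not tested.

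Counts of the RNase genes were also set against those of Rnh1 in the same rat, with Rnaset2, whose product is not of the A type that the inhibitor binds, given alongside. These ratios are not corrected for gene length, and they are compared only between rats. For Rnase4 the ratio ran from 4.04 to 6.88 with CNT-7 and from 3.30 to 4.50 with CNT-T, so that the groups overlapped. For Rnaset2 it was 2.43 ± 0.33 after CNT-7 and 2.92 ± 0.123 after CNT-T (SD, n = 4), also with overlap. For all 13 measured genes of the RNase A superfamily together, the ratio was 7.06 ± 1.28 after CNT-7 and 4.14 ± 0.546 after CNT-T (SD, n = 4), and the lowest CNT-7 rat (5.54) was above the highest CNT-T rat (4.56). This sum includes Rnase2 and Rnase1l1, which were at or near 0 after CNT-T and were chosen with this comparison known. A wider gap than for the Rnase4 ratio was therefore built in, and nothing is read from it. As a description of where the counts lay, Rnase4 held between 98.5% and 98.7% of the counts of these 13 genes in each CNT-T rat. In the CNT-7 rats its part was between 72.9% and 86.9%, with between 8.56% and 19.7% in Rnase1l1 and between 3.38% and 7% in Rnase2.

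**Figure D2:**
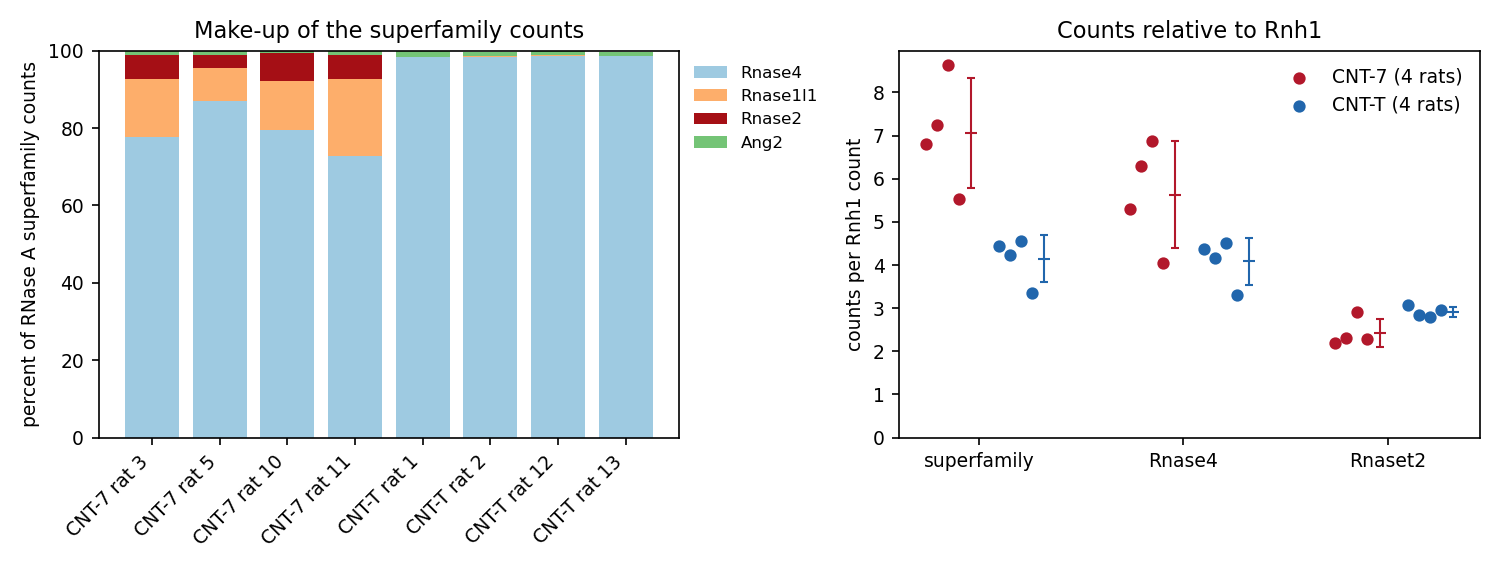
Left, percent of the counts of the 13 measured RNase A superfamily genes that fell on Rnase4, Rnase1l1, Rnase2 and Ang2 in each rat. Counts were not corrected for gene length, and genes without a row, such as Ang and Rnase1l2, are not included. Right, counts per Rnh1 count for the measured superfamily genes together, Rnase4 and Rnaset2, with points for rats and dashes with bars for mean ± SD (n = 4). The superfamily ratio was at least 5.54 in the CNT-7 rats and at most 4.56 in the CNT-T rats.

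On chromosome 15, 15 genes with Rnase or Ang names were found in order in the RefSeq annotation of GRCr8. Only this chromosome and names of this form were searched, so that superfamily genes with other names, such as Ear1, are not among them. This annotation was used for names and neighbours, since the counts were made on Rnor_6.0. Rnase4 and Rnase1l1 are consecutive in this order, and Rnase2 stands further along, followed by Rnase17 and Rnase3. Beside Rnase2, Rnase1l1 and Rnase4, 10 superfamily symbols had a row, Rnase3 among them. Of these 10, only Ang2 and Rnase10 had enough counts to be tested, and 5 (Rnase1, Rnase9, Rnase12, Rnase17 and Ear1) had 0 counts in all 8 rats, which allows a level of up to 0.109 CPM in a rat. Rnase11 had 4 counts in CNT-7 rat 3 and 0 counts in the other rats, and Rnase13 had 1 count in CNT-T rat 1 and 0 counts elsewhere.

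Ang2, an angiogenin gene of the rat, was higher with CNT-7 (9.10 ± 1.23 CPM) than with CNT-T (5.61 ± 1.06 CPM; SD, n = 4). The log2 fold change was 0.70, the same size as that of Rnase4, with a standard error of 0.16 (adjusted p = 0.015 by edgeR's quasi-likelihood test, Benjamini-Hochberg adjusted). There were 84.9 ± 16.2 Rnase4 counts per Ang2 count after CNT-7 and 85.4 ± 7.34 after CNT-T (SD, n = 4). No row was found under the symbol Ang, and whether reads of Ang were counted under Ang2 was not tested. Rnase10, a gene best known from the epididymis, went the other way at a very low level. It had 0, 0.134, 0.0722 and 0.217 CPM in CNT-7 rats 3, 5, 10 and 11 and 0.88, 1.6, 0.494 and 1.04 CPM in CNT-T rats 1, 2, 12 and 13. The difference on the log2 scale was -3.22, with a standard error of 0.64 and an adjusted p = 0.0070 by edgeR, and it passed the filter on low counts through the CNT-T rats alone.

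**Figure D3:**
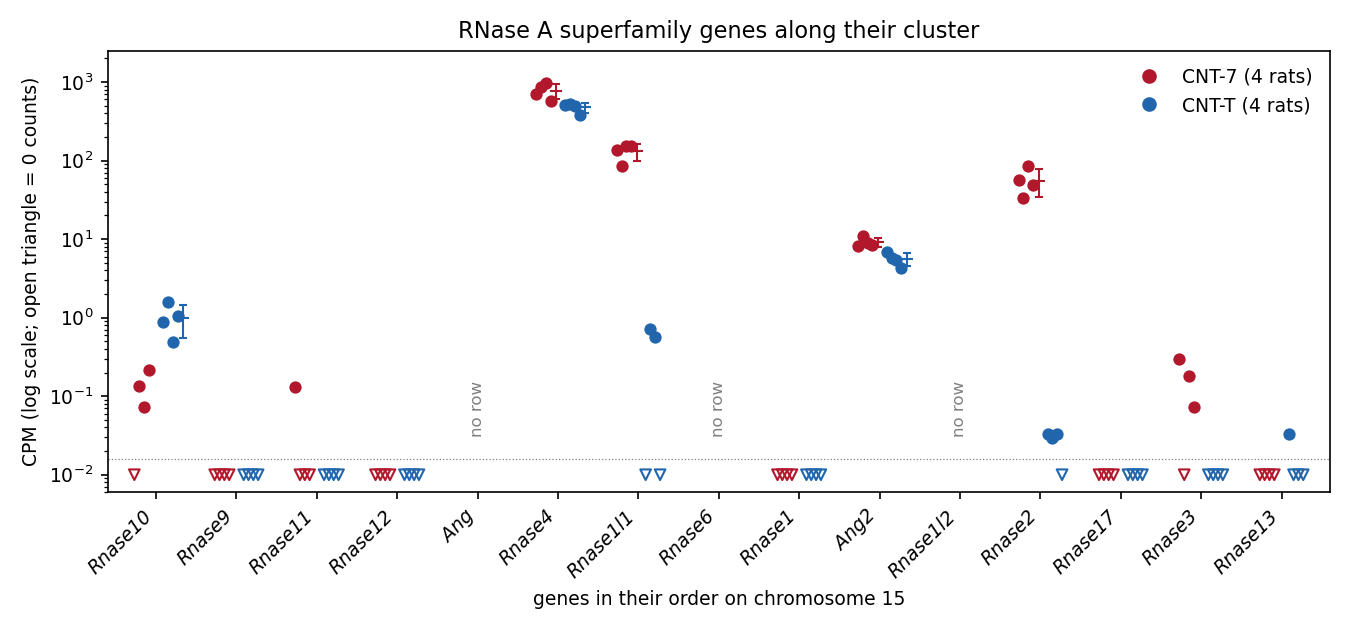
Level in CPM (log axis) of RNase A superfamily genes, in their order on chromosome 15 of GRCr8. Filled points are rats, open triangles are rats with 0 counts, and dashes with bars give the mean ± SD (n = 4) where every rat had counts. Rnase1l1 and Rnase2 had more than 33 CPM in the CNT-7 rats, Rnase10 was higher in the CNT-T rats, and no row was found under the symbols Ang, Rnase6 and Rnase1l2.

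The windows of Rnaset2 and of the first Rnh1 start, both on chromosome 1, held 18 and 12 CpG dinucleotides, against a median of 5 over all windows, and none of the 8 motifs. The windows of the other two Rnh1 starts, which overlap each other, held 5 and 8 CpG dinucleotides and both the AP-1 and the GC box letters. Rnase2 (2 CpG) and Rnase1l1 (0 CpG) lay below this median, and Rnase4 above it. These counts describe 5 genes and were not tested.

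Likeness of profile to Rnase2 over the 8 rats was searched among tested genes with a mean of at least 1 CPM. The genes of the set and those with provisional names were left out. Rnase2 and Rnase1l1 were therefore not compared with each other. Nearest were Fbp1, which encodes a gluconeogenic enzyme, and Hdc, which encodes histidine decarboxylase. The root mean square difference of their centred log2 CPM from that of Rnase2 was 0.70 and 0.94. The same genes came nearest to Rnase1l1, at 1.20 and 1.70. Fbp1 ranged from 13.3 to 41.5 CPM and Hdc from 21.4 to 91.2 CPM in the CNT-7 rats, and both were under 0.3 CPM in the CNT-T rats. Like Rnase2 and Rnase1l1, they passed the filter on low counts through the CNT-7 rats alone. As the gap between the groups dominates these profiles, likeness over the 8 rats says little about variation within a group.

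Genes with related functions were taken from 4 further lists, chosen with earlier results of these data known. The other ribonucleases moved mostly by small amounts between CNT-7 and CNT-T. Of 33 tested, 2 rose and 6 fell (24.2% called, against 27.9% of all genes), with a median log2 fold change of -0.03. Samhd1, which encodes a dNTP hydrolase with reported nuclease activity, rose from 48.9 ± 6.73 to 112.0 ± 44.1 CPM (log2 fold change 1.20). Zc3h12a, which encodes the mRNA-degrading Regnase, rose from 43.8 ± 3.8 to 80.7 ± 16.8 CPM (0.88). Rnaseh2b (-0.48) and Rnaseh2c (-0.47), both for subunits of RNase H, fell, and the catalytic subunit gene Rnaseh2a (-0.03) was not called. Dxo (-0.43), a decapping enzyme gene, and Eri1 (-0.38), a histone mRNA exonuclease gene, also fell. Without CNT-7 rat 5, 5 of these genes were called, in a fit where 21.2% of all genes were called.

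The endolysosomal list holds nucleases, transporters and receptors that meet RNA and DNA in the same compartment as the Rnaset2 protein. Of 20 tested genes, 7 rose and 1 fell (40.0% called, against 27.9% of all genes), with a median log2 fold change of 0.27. Acp5, the gene of tartrate-resistant acid phosphatase, rose from 0.757 ± 0.225 to 6.04 ± 1.39 CPM (log2 fold change 2.99). Sidt1, which encodes a transporter of double-stranded RNA, rose from 0.138 ± 0.0328 to 0.562 ± 0.286 CPM (2.00), a low level in both groups, and it also passed the filter through the CNT-7 rats alone. Dnase1l1 (0.42) and the lysosomal exonuclease gene Pld3 (0.41) rose less, and the protease gene Ctss (-0.30) fell. Among the endosomal receptors, Tlr8 was called higher (0.38, adjusted p = 0.075 by edgeR), a call that was lost at a threshold of 0.05. Tlr7 (-0.33, adjusted p = 0.10 by edgeR), Tlr3 (-0.24) and their chaperone gene Unc93b1 (-0.04) were not called.

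Of 26 tested genes for RNA sensors, their adaptors and receptors of secreted RNases, 3 rose and none fell (11.5% called, against 27.9% of all genes), with a median log2 fold change of 0.08. Tlr2, whose product is a reported receptor of the human protein related to that of Rnase2, rose from 115.8 ± 13.7 to 178.2 ± 33.6 CPM (log2 fold change 0.62). Its adaptor gene Myd88 rose to 78.8 ± 7.58 CPM (0.39), and Ifit1 was called at under 1 CPM in both groups (0.90). Plxnb2, which encodes a receptor of angiogenin, had 891.1 ± 82.4 CPM (CNT-7) and 967.8 ± 73.0 CPM (CNT-T; SD, n = 4) and was not called. Without CNT-T rat 13, 5 genes of this list were called, in a fit where 25.1% of all genes were called. The call of Ifit1 was lost with DESeq2, without the filter on low counts and at a threshold of 0.05. It was also lost without CNT-7 rat 3, 5, 10 or 11 or CNT-T rat 2 or 12.

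Secreted and related host-defence genes, a class to which the RNases belong, moved in both directions. Of 14 tested, 3 rose and 5 fell (57.1% called, against 27.9% of all genes), with a median log2 fold change of -0.15. Cst7, which encodes cystatin F, rose from 1.43 ± 1.36 to 87.7 ± 12.1 CPM (log2 fold change 5.90). Wfdc21 (3.82) and Hamp, the hepcidin gene (2.55), were called higher at low levels, and both passed the filter on low counts through the CNT-7 rats alone, so that a difference was built into their being tested. S100a8 (-1.46), Slc11a1, which encodes a metal transporter of the phagosome (-1.19), Pf4 (-0.98), the gene of a platelet-type chemokine, and Grn (-0.33), the progranulin gene, fell. The neutrophil gene S100a8 averaged 2.24 ± 0.986 CPM with CNT-7 and 6.17 ± 2.16 CPM with CNT-T (SD, n = 4). The other tested neutrophil markers differed in direction. S100a9 (1.23), Cxcr2 (1.26) and Elane (-0.68) were not called.

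**Figure D4:**
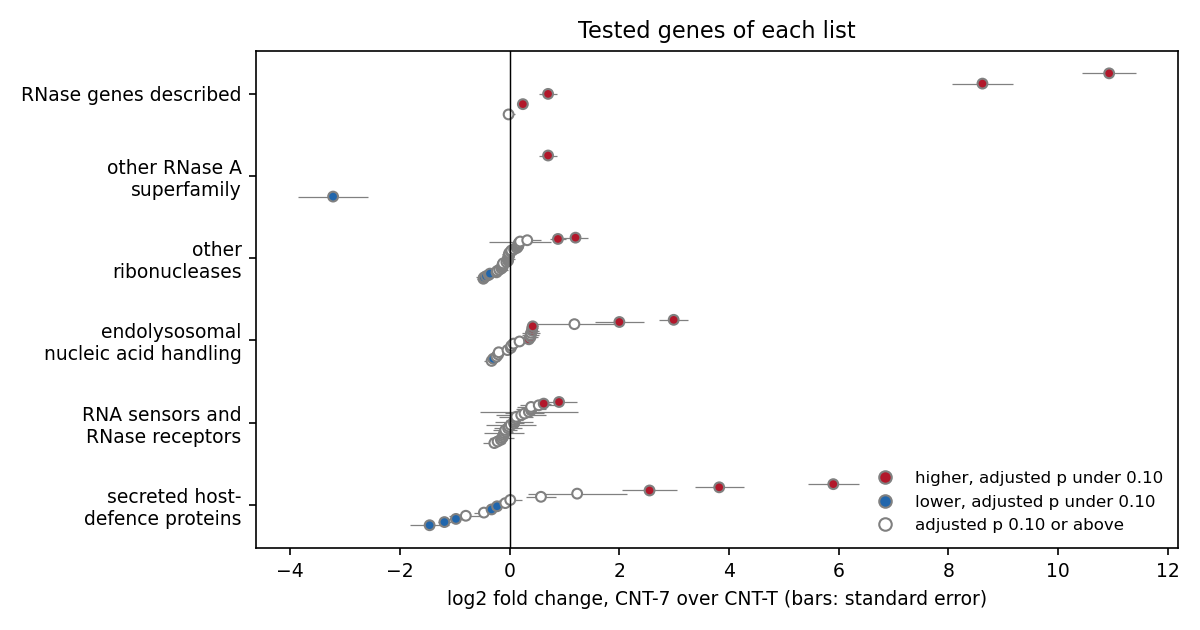
Log2 fold change (CNT-7 relative to CNT-T) for every tested gene of each list, with bars for the standard error. Filled red points were called higher and filled blue points lower at an adjusted p under 0.10, and open points were not called. Rnase2 (10.93, a fitted value against CNT-T rats with at most 1 count) and Rnase1l1 (8.62) lay furthest to the right, and Rnase10 (-3.22) furthest to the left.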

How the data were processed

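Sorted peritoneal macrophages of 8 rats, 4 per particle, were sequenced as stranded mRNA libraries. The authors ran the ARMOR workflow, in which Salmon (version not given in the sources used here) quantified the reads against Ensembl rat cDNA of Rnor_6.0 and tximeta imported them into R. The deposited table holds estimated counts per gene, already whole and not normalized, and 0 columns were left out. Salmon divides reads among similar transcripts, so that values of near-identical RNase genes are uncertain.

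All genes were fitted with edgeR 4.0.16 in R 4.3.3 (TMM, filterByExpr at 10 counts per sample and 15 in total, quasi-likelihood test, Benjamini-Hochberg adjustment, threshold 0.10 as in the study's methods). Each standard error was taken as the absolute log2 fold change over the root of F. The scripts were tested on simulated counts. The labels do not state how the rats were allocated or processed in batches. P-values weigh the difference between the groups against the spread between rats. They do not cover differences in how the groups were allocated or processed.

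The members and lists were chosen with earlier results of these data known. Named were all members and up to 4 called genes in each direction per list with the largest change. For members with an absolute log2 fold change of at least 1, the 2 genes most alike were also named. These had the smallest root mean square difference of centred log2 CPM (prior count 2). Members, genes under a mean of 1 CPM and provisional names, such as those starting with LOC or AABR, were left out of this search. Other genes were named after their values were seen. Upstream sequences came from RefSeq (GRCr8) by symbol, and aligned with Biopython 1.88. Alternatives were DESeq2 1.42.0, upper-quartile normalization, no filter, a threshold of 0.05, each rat left out, and a prior count of 0.5. The values of 1 gene are not reported here.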

Additional observations from a re-analysis of the deposited data

Results flagged for a closer look

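Dixon's ratio was computed for 28 genes, namely the RNase and inhibitor genes and the list genes named by rule. Other genes named above, such as Fbp1 and the eosinophil markers, were not examined in this way. In 4 of 56 groups of 4 rats, 1 rat stood apart from the other 3 (distance to the nearest rat over the whole range, at its 95% critical value), where chance gives about 2.8. Rnase2 in CNT-T rat 13 (ratio 0.897) had 0 counts against 1 count in each other CNT-T rat, which is below the smallest detectable level. Samhd1 in CNT-7 rat 11 (ratio 0.83) had 177.2 CPM, while the remaining CNT-7 rats had 80.3 to 96.8 CPM. Cst7 in CNT-T rat 2 (ratio 0.861) had 3.46 CPM against 0.522 to 0.931 CPM, and Hamp in CNT-7 rat 10 (ratio 0.90) had 1.88 CPM against 0.637 to 0.76 CPM.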

How the results depend on the processing

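No paired analysis was possible because the rat numbers of both groups do not coincide. Of the 5 RNase and inhibitor genes, 4 were called with DESeq2, upper-quartile normalization, all genes unfiltered, a threshold of 0.05 and each rat left out. Under these settings between 19.7% and 30.0% of all genes were called. Because the 5 genes were chosen with this comparison known, nothing is read from the count of 4. Rnaset2, never called, changed sign in 3 of the fits without one rat (range -0.13 to 0.04). With one rat left out, the number of genes called ranged from 2578 to 3515 over all genes (3383 with all rats), from 5 to 9 for other ribonucleases (8), from 6 to 11 for endolysosomal genes (8), from 2 to 5 for RNA sensors and receptors (3) and from 6 to 9 for host-defence genes (8). The lowest value for other ribonucleases was without CNT-7 rat 5 and the highest for the sensors without CNT-T rat 13, and the cause was not tested. DESeq2 called 12 endolysosomal genes and 30.0% of all genes. Among the genes named by rule, Ctss, Grn, Dxo, Eri1 and Ifit1 lost their calls under at least 1 alternative, and Tlr8 and Ccl6 (adjusted p = 0.075 and 0.088 by edgeR) also lost theirs at a threshold of 0.05. The genes most alike formed 4 pairs, namely Fbp1 and Hdc, each with Rnase2 and with Rnase1l1. With a prior count of 0.5, 3 of these 4 pairs were the same. Genes under about 0.1 CPM cannot be told from 0 at this depth.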
